A study of Homo sapiens with 2 samples.

Results

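PLEC and ERRFI1 are 2 genes whose transcripts carry contacts of SNRPA1 in MDA-231-LM2 cells. MDA-231-LM2 is a human breast cancer line with high lung-metastatic capacity, derived from MDA-MB-231. SNRPA1 was recovered with an antibody to the endogenous protein after crosslinking, and the bound RNA was sequenced by irCLIP, in 2 biological replicates that form 1 group, with no treatment named. The deposited data are 2 lists of peaks in hg19 coordinates, one with a height in tags per peak (the height list) and one made with the peak caller CLIPper, with a number of reads per interval. The members are all intervals that carry the Entrez identifier of PLEC (5339) or ERRFI1 (54206) in the height list, and all CLIPper intervals that carry the Ensembl identifier found on an overlapping interval (ENSG00000178209 for PLEC, ENSG00000116285 for ERRFI1). They number 10 of 9024 intervals, 8 in PLEC and 2 in ERRFI1, or 3 from the height list and 7 from the CLIPper list.

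SNRPA1 belongs to the U2 snRNP, which pairs with the branch site of introns during splicing. It binds a stem-loop of the U2 snRNA together with SNRPB2, and it has also been studied as a reader of structured RNA elements near alternative exons, with PLEC and ERRFI1 among the transcripts considered. PLEC encodes plectin, a very large plakin that ties intermediate filaments to actin and to hemidesmosomes. Its transcript ends in very large exons that encode the central rod and the C-terminal plakin repeats. ERRFI1 encodes MIG6, a feedback inhibitor that binds the kinase domain of EGFR.

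Neither list keeps the replicates apart, so no spread between replicates can be given, and no control immunoprecipitate or input was analysed here. The depth per library is unknown. Intervals given below with a number of tags or reads are 95% exact Poisson intervals, which cover counting error only, and reads from PCR are not all independent molecules. Over the 1373 intervals of the height list the median height was 4 tags, and over the 7651 CLIPper intervals the median was 5 reads. Both genes were somewhat above the middle of each list by these counts, but not among the height-list peaks that pass a stricter limit. With P under 1e-5 the tallest PLEC peak was at percentile 50.8 by height and a peak of 5 tags, as in ERRFI1, would be at 31.4. With p under 1e-10 every remaining CLIPper interval had more reads than any of PLEC or ERRFI1. That limit itself removes intervals of few reads, so this outcome was fixed in advance and ranks neither gene. The lowest deposited p over all 658 CLIPper intervals of 6 reads was 8.33e-05, and that of the PLEC interval of 8 reads was 1.39e-06. No exon, intron, UTR or structured element could be placed under these intervals, because no hg19 genome or annotation was used here, and their sequences are not shown for the same reason.

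In PLEC, contacts were listed at 5 separate places within 11674 nt, each of 5 to 8 tags or reads. PLEC lies on the minus strand of chromosome 8, so the highest coordinate is nearest the 5′ end of the transcript. The first place was a CLIPper interval of 6 reads (Poisson interval 2.20 to 13.1) at chr8:145003392-145003427. The next was a height-list peak of 5 tags (1.62 to 11.7) at chr8:145002353-145002383. These 2 intervals lay 1008 nt apart, and neither was in the other list.

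The third place carried the tallest PLEC peak of the height list, with 6 tags (2.20 to 13.1) at chr8:144999329-144999362, and was the only place in the gene present in both lists. CLIPper listed 6 reads there, at chr8:144999328-144999364. The 2 PLEC peaks of the height list were separated by 2990 nt. The CLIPper interval covered the whole of the height-list peak and extended past it at both ends.

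Further towards the 3′ end, CLIPper listed 2 pairs of adjoining intervals without a height-list peak. The first pair, with 0 nt between its members, was a 29-nt interval of 6 reads at chr8:144995201-144995229 and a 6-nt interval of 6 reads at chr8:144995195-144995200. The second pair, with 1 nt between them, was an interval of 5 reads (1.62 to 11.7) at chr8:144991797-144991832 and one of 8 reads (3.45 to 15.8) at chr8:144991754-144991795. The interval of 8 reads was the strongest of PLEC in the CLIPper list. All 6 CLIPper values overlapped in their counting intervals, so no order among the places is given by the counts.

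**Figure D1:**
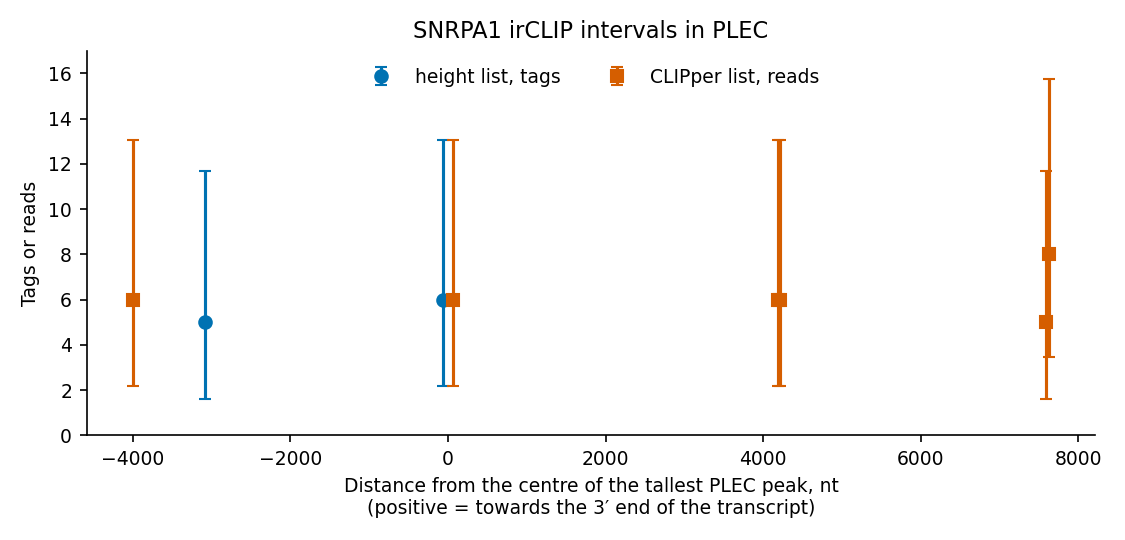
Tags (height list, blue circles) and reads (CLIPper list, orange squares) of the 8 PLEC intervals against the distance in nt from the centre of the tallest peak, positive towards the 3′ end, with 95% exact Poisson intervals; the 2 lists are drawn slightly apart. All values lie between 5 and 8, and a blue and an orange symbol meet only at the tallest peak.

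In ERRFI1 both lists gave 1 interval, at the same place. The height-list peak had 5 tags (Poisson interval 1.62 to 11.7) at chr1:8075255-8075286, on the minus strand. The CLIPper interval had 6 reads (2.20 to 13.1) at chr1:8075254-8075288, and contained the peak. No interval of another gene lay within 505511 nt on either strand in either list. For PLEC the nearest interval of another gene was 93786 nt away, a CLIPper interval of 6 reads on the plus strand.

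The 2 lists placed the shared sites almost exactly alike. Both lists come from the same libraries, so their agreement is a description and not independent evidence for a site. The CLIPper list gives a short inner position within each interval, whose meaning the file does not state. For PLEC this position was chr8:144999344-144999347 and for ERRFI1 chr1:8075270-8075273. The centres of the CLIPper and height-list intervals differed by 0.5 nt at both sites. Over all 1590 overlapping pairs of the 2 lists, the median distance between the centre of the peak and the inner position was 1.5 nt. This is another measure than the 0.5 nt between interval centres, so the 2 values are not to be compared.

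**Figure D2:**
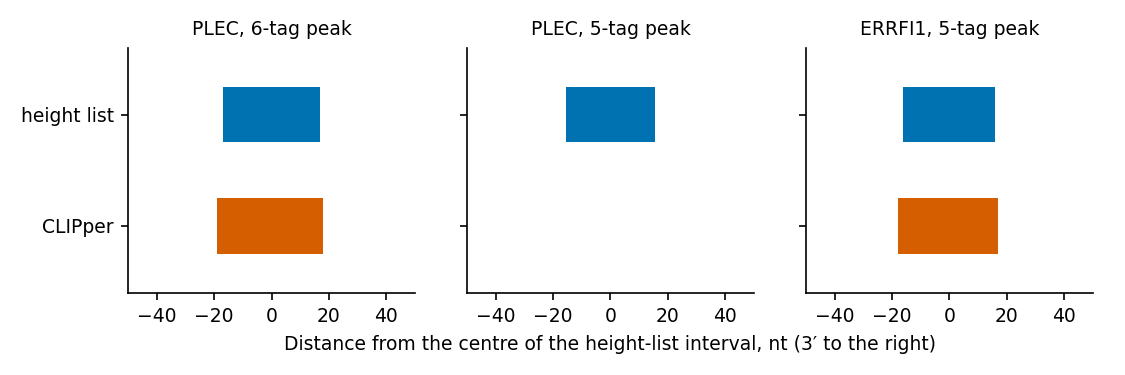
Extent of the height-list interval (blue) and of any CLIPper interval within 100 nt (orange) at the 3 height-list peaks of PLEC and ERRFI1, in nt from the centre of the height-list interval, with the 3′ direction to the right. CLIPper intervals of 37 nt and 35 nt enclose the 34-nt and 32-nt peaks of the outer panels, and none is listed at the 31-nt peak of 5 tags in PLEC.

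Of the 3 height-list peaks of both genes, 2 shared 1 nt or more of the same strand with a CLIPper interval, beside 97.2% of all height-list intervals. The PLEC peak of 5 tags is thus 1 of 38 height-list intervals with no CLIPper partner. Of those 38, 15 had 5 or more tags, the median was 4 tags and the tallest had 13. Of the 38, 6 were in genes where another peak did lie on a CLIPper interval, as in PLEC. A second peak is needed for this, and 89.3% of the genes in the height list had only 1. Among the 118 genes with exactly 2 height-list peaks, 5 had 1 peak on a CLIPper interval and 1 off it. These were PLEC, IGSF1, LINC01138, PCDH11X and YY1AP1, of which IGSF1, LINC01138 and YY1AP1 were named after their values were seen. In YY1AP1 both peaks had 5 tags, and in PCDH11X they had 6 on and 5 off, as in PLEC.

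Seen from the CLIPper list, 1 of the 6 intervals of PLEC and the only one of ERRFI1 overlapped a height-list peak, beside 20.8% of all CLIPper intervals. The Ensembl identifier of each gene was found through such an overlap, so at least 1 shared interval per gene was fixed in advance. The share was 21.1% (95% Wilson interval 18.6 to 23.8) of the 962 intervals with 5 reads, 26.3% (23.1 to 29.8) of the 658 with 6 reads and 35.1% (30.2 to 40.4) of the 336 with 8 reads. An unshared interval at 5, 6 or 8 reads, as PLEC has at each of these values, was therefore the more frequent outcome in the list. The single ERRFI1 interval, with 6 reads, was shared by the way the members were found, so it is not ranked against these shares. At the shared site the ratio of reads to tags was 1.00 in PLEC and 1.20 in ERRFI1, against a median of 1.67 and quartiles of 1.25 and 2.25 over 1335 shared sites. Ratios of 1.20 or less were found at 256 sites (19.2%).

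**Figure D3:**
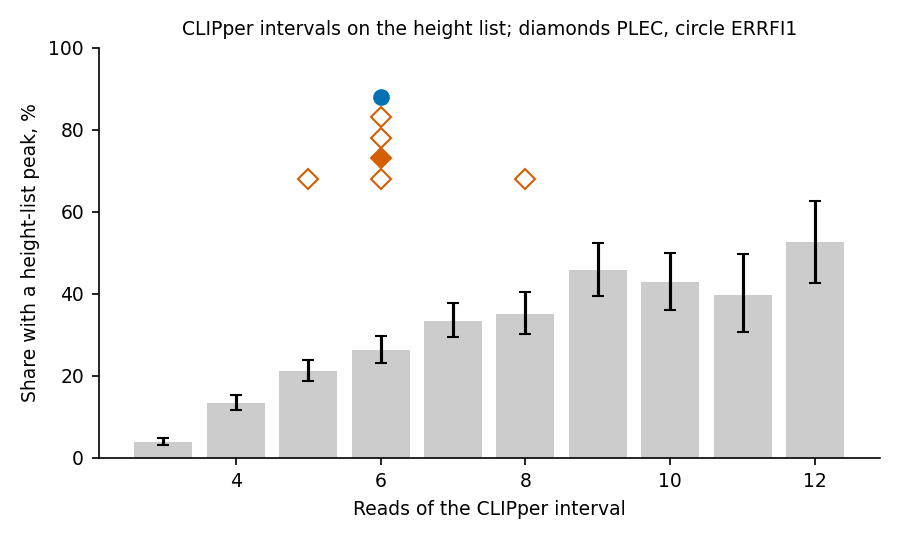
Share (%) of CLIPper intervals with 3 to 12 reads that overlap a height-list peak (grey bars, 95% Wilson intervals), with the member intervals marked above at their number of reads (orange diamonds PLEC, blue circle ERRFI1, filled where the interval has a height-list peak; the vertical position of the marks carries no value). In PLEC 1 of 6 marks is filled, and the bars at 5, 6 and 8 reads stand at 21.1%, 26.3% and 35.1%.

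Within the height list, the tallest PLEC peak was at percentile 76.3 of all intervals by height and the ERRFI1 peak was at percentile 65.9. Heights of 5 or more tags were found in 40.2% of intervals, and 168 intervals had exactly 5 tags and 116 exactly 6. The CLIPper interval of PLEC with 8 reads was at percentile 77.3 of its list and the ERRFI1 interval of 6 reads at percentile 64.4. Among the strongest CLIPper interval of each identifier, they were at percentiles 72.5 and 57.5.

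The deposited P of these peaks was high for their height. PLEC had 4.78e-07 at 6 tags and 0.00018 at 5 tags, and ERRFI1 had 1.82e-05 at 5 tags. The medians were 1e-09 over all peaks of 6 tags and 2.75e-08 over all peaks of 5 tags. Of the 168 peaks with 5 tags, 94.6% had a lower P than the PLEC peak and 87.5% a lower P than the ERRFI1 peak. Of the 116 peaks with 6 tags, 90.5% had a lower P than that of PLEC.

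The file also gives each peak a value called PH0, which it does not define. PH0 was 0.01 for all 3 peaks, while 82.1% of intervals had a PH0 printed as 0.00 and 11.9% had 0.01. Among the 22 peaks with 5 tags and a PH0 of 0.01, P ran from 9.04e-07 to 0.00018, and the PLEC peak was the highest of them. Among the 20 with 6 tags and a PH0 of 0.01, the PLEC peak was again the highest, at 4.78e-07. The ERRFI1 peak lay inside its group, with 6 of the 22 above it.

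**Figure D4:**
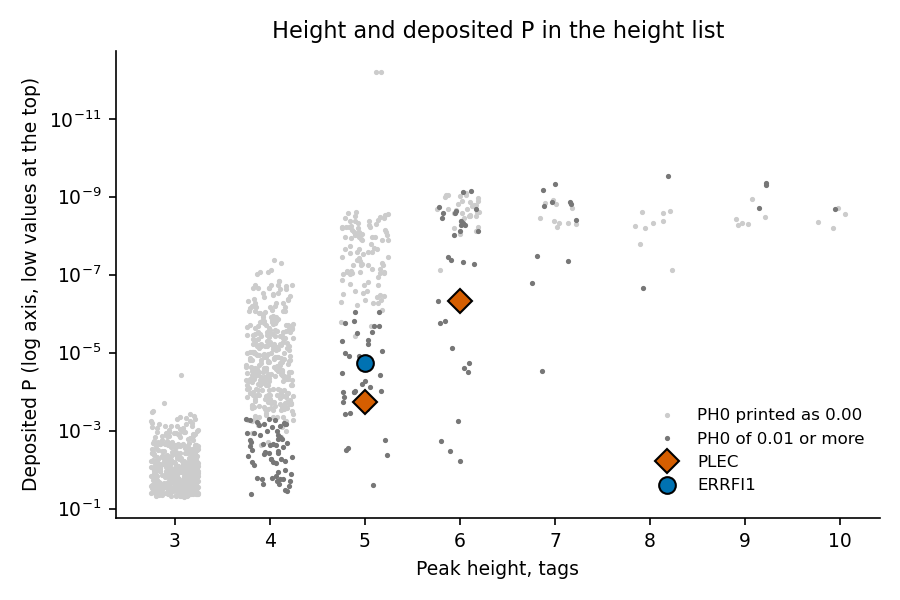
Deposited P (log axis, low values at the top) against height in tags for height-list intervals of 3 to 10 tags, light grey where PH0 is printed as 0.00 and dark grey where it is 0.01 or more, with PLEC as orange diamonds and ERRFI1 as a blue circle; points are spread sideways for display, and the 185 of 1253 intervals with P at 1e-100 are not drawn. The 3 member peaks lie among the dark points, below most intervals of the same height.

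PLEC held more intervals than most genes, and ERRFI1 did not. With 2 height-list peaks PLEC was among the 10.7% of the 1286 genes of that list with 2 or more, while 89.3% of the genes had 1, as did ERRFI1. Its 6 CLIPper intervals put it among the 1.82% of 4848 Ensembl identifiers with 6 or more. When intervals within 50 nt were joined, PLEC had 4 CLIPper regions, a number reached by 3.51% of identifiers. For ERRFI1 the CLIPper list had 1 interval, as for 63.2% of identifiers.

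Among the 88 identifiers with 6 or more CLIPper intervals, PLEC was below the median in strength and in span. Its strongest interval had 8 reads (Poisson interval 3.45 to 15.8), against a median of 10 reads for the strongest interval of these identifiers. Of the 88, 18 were below 8 reads and 25, PLEC included, had at most 8. The median of 10 lies inside the Poisson interval, so this difference is within counting error. Identifiers of overlapping genes may list the same intervals. The summed reads of PLEC were 37, against a median of 43, with 29 identifiers lower. Its CLIPper intervals spanned 11674 nt, against a median span of 236818 nt, and 14 identifiers had a shorter span. Having only 1 interval with a height-list peak, or none, was shared by 41 of the 88, and in the median identifier 18.2% of the intervals had one.

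**Figure D5:**
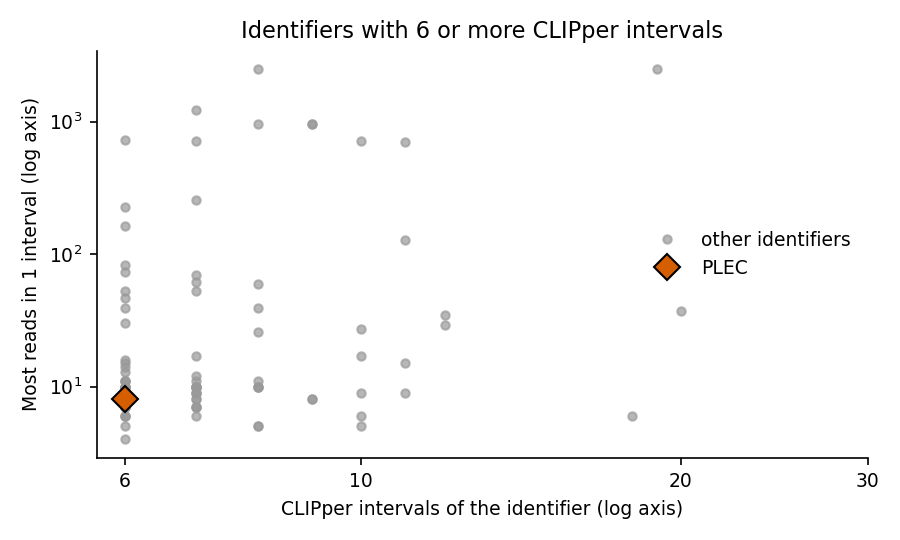
Most reads in 1 interval (log axis) against the number of CLIPper intervals (log axis) for the 88 Ensembl identifiers with 6 or more, PLEC as an orange diamond. PLEC lies at 6 intervals and 8 reads, in the lower left of the plot.

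The span of the contacts in PLEC was also a small part of the gene. In the RefSeq table of GRCh38.p14 PLEC has a length of 61593 nt and ERRFI1 of 14583 nt. The span of the CLIPper intervals came to 19.0% of the length of PLEC, and the gap between its 2 height-list peaks to 4.85%. Over the 118 genes with 2 height-list peaks the median gap was 84498 nt, or 33.0% of gene length, and 14 of them had a smaller relative gap than PLEC. These lengths are of another build than the peaks and serve only as a scale.

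PLEC and ERRFI1 did not differ in the strength of single sites beyond counting error, and their summed reads per length of gene did not either. The tallest peaks, 6 against 5 tags, had a ratio of 1.20 (95% interval 0.305 to 4.97, exact binomial test, two-sided, p = 1, Benjamini-Hochberg adjusted p = 1 over 5 comparisons). The strongest CLIPper intervals, 8 against 6 reads, had a ratio of 1.33 (0.406 to 4.66, exact p = 0.791, adjusted p = 0.988). Both intervals also allow several-fold differences in either direction. The tags summed over the gene, 11 against 5, had a ratio of 2.20 (0.705 to 8.08, exact p = 0.210, adjusted p = 0.350).

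Reads summed over the CLIPper intervals were 37 in PLEC and 6 in ERRFI1, a ratio of 6.17 (2.58 to 17.9, exact binomial test, p = 1.64e-06, adjusted p = 8.18e-06). The test takes each read as independent, but adjoining intervals may count the same reads, and reads from PCR are not all independent molecules. Its p-value thus covers counting error only and may be too low. With only the strongest interval of each joined region, a setting chosen after seeing the data, the sums were 26 and 6, a ratio of 4.33 (1.74 to 12.9, exact p = 0.000535, adjusted p = 0.00134). The gene lengths have a ratio of 4.22. Per 10 kb of gene the full sums were 6.01 reads in PLEC and 4.11 in ERRFI1, a ratio of 1.46 (0.611 to 4.23, exact binomial test, p = 0.560). With the strongest interval of each region they were 4.22 and 4.11, a ratio of 1.03 (0.413 to 3.05, exact p = 1). Per 10 kb the height list held 0.325 peaks in PLEC (Poisson interval 0.0393 to 1.17) and 0.686 in ERRFI1 (0.0174 to 3.82). RNA abundance was not measured here, and its part in these values was not tested.

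The genes most like each member were sought among height-list genes with the same number of peaks, by the distance in log2 of the tallest height and log2 of the most reads on an overlapping CLIPper interval. CLIPper intervals away from a height-list peak, and sums over a gene, did not enter this distance, so genes alike here may differ widely in them. For PLEC, over 111 candidates, PCDH11X, a protocadherin gene, had the same values of 6 tags and 6 reads. ATXN1, which encodes ataxin-1, and CNTN5, which encodes contactin 5, followed with 6 tags and 7 reads each, at a distance of 0.222. The tallest peaks of PCDH11X and CNTN5 had P at its lowest value of 1e-100, and that of ATXN1 had 8.89e-09, all below the 4.78e-07 of PLEC. Their genes are also longer, at 844 kb for PCDH11X, 462 kb for ATXN1 and 1338 kb for CNTN5.

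For ERRFI1, 17 of 1110 candidates had the same 5 tags and 6 reads, and the nearest in P were the mucin gene MUC20, LINC01004 and the semaphorin receptor gene PLXNB1. MUC20 had P of 1.05e-05 and a PH0 of 0.01, LINC01004 had P of 0.000105 and a PH0 of 0.02, and PLXNB1 had P of 1.77e-06 and a PH0 of 0.01. Their lengths are 12.6 kb for MUC20, 9.42 kb for LINC01004 and 26.5 kb for PLXNB1, beside 14.6 kb for ERRFI1. A pattern of 5 tags in 1 place was thus shared with many genes of the list.

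In a list of plakin, hemidesmosome and cytoskeletal linker genes, a height-list peak was held by 5 of 29 members (17.2%), beside 6.02% of 20056 protein-coding genes. PLEC itself is 1 of the 5. Its peaks were known from the choice of the members, so it raises this share by design. The median gene length was 54.6 kb in the list and 24.1 kb over all protein-coding genes, and the part of length in this share was not tested. Among the plakins themselves, MACF1, which links actin and microtubules, had 2 peaks. Its taller one had 14 tags at chr1:39699451-39699482, with 44 reads on the CLIPper interval, and the other 5 tags at chr1:39698423-39698454, with 11 reads. DST, which encodes dystonin, had 1 of 3 tags. With P under 1e-5, 4 of the 29 remained (PLEC and the others but DST), beside 2.93% of protein-coding genes. DSP, EVPL, PPL and EPPK1, the other plakin genes of the list, held none.

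Of the actin-binding and membrane-skeleton genes, ACTN4 (alpha-actinin-4) had 2 peaks, of 5 and 4 tags, and SPTBN1 (beta-spectrin) 1 of 5 tags. The hemidesmosome partners ITGA6, ITGB4, COL17A1 and CD151 held no peak in the height list. PLEC, with 6 tags, thus stood between MACF1 and the other members of the list by its tallest peak. Its difference from the 5 tags of ACTN4 and SPTBN1 is within counting error. The peaks of MACF1, ACTN4, SPTBN1 and DST all lay on CLIPper intervals, as did 97.2% of all height-list intervals. The PLEC peak of 5 tags did not, a difference that was not tested.

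Among genes of EGFR signalling and its feedback, 6 of 48 (12.5%) held a height-list peak, beside the same 6.02%, and each of the 6 had a single one. CLIPper intervals of these genes away from a height-list peak were not counted, so the genes may hold further sites. ERRFI1 itself is 1 of the 6. Its peak was known from the choice of the members, so it raises this share by design. Of the receptors, ERBB2 had 5 tags at chr17:37848660-37848691 with P of 3.11e-07, and EGFR, the receptor that MIG6 inhibits, had 4 tags at chr7:55135455-55135487 with P of 0.000141. Of the ligands, EGF had 3 tags with P of 0.0193. The adaptor gene SHC1 had 4 tags with P of 0.0046, and the feedback inhibitor gene SPRED1 4 tags with P of 0.00019. ERRFI1 and ERBB2 were thus the tallest of the 6, at 5 tags each. The 3 or 4 tags of the others lie inside the Poisson interval of 5 tags (1.62 to 11.7). With P under 1e-5, only ERBB2 of the 48 genes remained, beside 2.93% of protein-coding genes. The median gene length of this list was 49.2 kb, against 24.1 kb over all protein-coding genes. The feedback inhibitor genes LRIG1, SPRY2 and SOCS5 held none.

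In the partners of SNRPA1 itself, 3 of 22 (13.6%) genes of U2 snRNP and associated proteins held a height-list peak, beside 6.02% of protein-coding genes. They were SF3B3, U2SURP and DDX42, each with 4 tags. With P under 1e-5 the count was 0 of 22, beside 2.93%. The median gene length of the list was 15.8 kb. The 3 peaks are lower than those of PLEC and ERRFI1 by 1 or 2 tags, which is within counting error. None of the 8 markers checked for the epithelial, mesenchymal, blood and endothelial lineages (VIM, CD44, EPCAM, CDH1, KRT8, KRT18, PTPRC and PECAM1) held a peak, beside 6.02% of protein-coding genes, so that a count of 0 among so few says little. A peak list gives no expression level, so the identity of the line could not be checked from it.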

How the data were processed

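SNRPA1 irCLIP was measured in 2 biological replicates of MDA-231-LM2 cells. Per the submitters' processing notes cutadapt 1.10, BWA 0.7 and hg19 were used. The authors deposited a signal per interval in the height list (peak height in tags, pooled per the file's name, with P between 1e-100 and 0.0494). In the CLIPper list each interval has a deposited p-value (at most 0.0499), and its name holds the reads. No source used here says how PH0 and P were computed. All heights, reads and p-values come from the authors and serve to describe and rank intervals within a list.

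Repeated entries of an interval were counted once, which turned 1454 and 8053 entries into 1373 and 7651 intervals. Entrez identifiers were named through the RefSeq table of GRCh38.p14 (1444 of 1454 entries, 99.3%), whose coordinates are not given. Overlap required 1 nt on the same strand. In percentiles, tied intervals were split evenly above and below. Counts of the 2 genes were compared with an exact binomial test at a threshold of 0.05. The members, the gene lists and the rule for similar genes were chosen with earlier results of these data known. Named were both members, every list gene with a peak, and 3 similar genes for each member. Code for overlap and intervals was tested on simulated data. The software was scipy 1.17.1 with pandas 2.3.3 and numpy 2.4.6 under Python 3.11.15, and matplotlib 3.10.9 for figures.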

Additional observations from a re-analysis of the deposited data

How the results depend on the processing

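Of 40 alternatives, 25 stayed within 1.5 times the reported value and its counting interval or, for the comparison of the 2 genes, on the same side of the threshold. With P under 1e-5 in the height list, PLEC kept 1 of 2 peaks and ERRFI1 0 of 1, which gives 0.162 and 0 peaks per 10 kb. Among the peaks that pass this limit, the height percentile fell from 76.3 to 50.8 in PLEC and from 65.9 to 31.4 for the 5 tags of ERRFI1. The same limit left 1 of 6 genes with a peak in the EGFR list and 0 of 3 in the U2 list. With p under 1e-10 in the CLIPper list, both PLEC and ERRFI1 had 0 intervals, and their strongest intervals, at percentiles 77.3 and 64.4 of the whole list, were at percentile 0 of those that remained. Fewer intervals pass a stricter limit by construction. The limit on P also removes low peaks, so the lower height percentiles follow at least in part from it. The limit on p removes intervals of few reads, so the percentile of 0 was fixed in advance. Counting only CLIPper intervals under a height-list peak left 1 for PLEC. The ratio of PLEC to ERRFI1, 1.20 for the tallest peaks, was 6.17 for summed CLIPper reads and 4.33 for the strongest interval of each joined region, the latter chosen after seeing the data, and both passed the exact binomial test. Both sum over more intervals in PLEC. The unknown depth limits all these numbers. Replicates could not be left out in turn, since neither list gives values per replicate. No paired analysis was possible because there is 1 group.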
